A study of Mus musculus with 9 samples.

Results

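The 38 genes described here encode the germline receptors with which mouse cells detect microbial and damage-derived molecules, together with their closest signalling partners. They were taken by gene name out of 54449 genes in the deposited table. They comprise 12 Toll-like receptors, 3 accessory molecules for lipopolysaccharide, 6 Toll adaptors and kinases, 5 NOD-like receptors, 4 inflammasome effectors, 6 genes of the C-type lectin branch (5 receptors and the adaptor Card9) and 2 adaptors of cytosolic nucleic acid sensing. RNA was measured in 9 libraries of cells sorted from the lungs of C57BL/6 mice and labelled as eosinophils. The naive group (3 libraries) came from mice given saline alone. The Siglec-F high group (3 libraries, titled iEOS) and the Siglec-F int group (3 libraries, titled rEOS) came from mice that received PyMT mammary tumour cells in 200 µl saline through the tail vein, a model in which tumour cells are seeded directly into the lung rather than shed by a primary tumour. No genotype other than the strain, no time after injection and no age was given in the labels used here. Each library pooled 3 to 4 mice, so the spread between libraries is a spread between pools.

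Toll-like receptors sit on the cell surface, where they bind lipopeptides, lipopolysaccharide or flagellin, or in endosomes, where they bind nucleic acids, and most signal through Myd88. NOD-like receptors detect peptidoglycan fragments or cell damage in the cytosol, and some assemble inflammasomes that activate caspase-1. C-type lectins such as Dectin-1 (Clec7a) bind fungal and bacterial glycans. Lung macrophages and monocytes carry many of these receptors, and eosinophils are known to carry some of them.

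The libraries held 2205949 to 12495639 reads in genes, and the mitochondrial share of the total ran from 11.5% to 31.1%, the latter in Siglec-F high library 1. The labelled cell type was checked against marker genes. The summed level of 10 eosinophil markers was low in every group. In normalized counts it was 124 to 274 in naive, 147 to 873 in Siglec-F high and 72.5 to 296 in Siglec-F int. The naive libraries held no read of Ccr3, Prg3 or Adgre4. Siglec-F high library 3 gave the 873, of which 379.5 was Prg2, while the other libraries of that group gave 147 and 246. Siglecf, the gene behind the group names, measured 4.18 to 31.26 in naive, 3.58 to 17.55 in Siglec-F high and 6.98 to 20.22 in Siglec-F int. These ranges overlap, and Siglecf was not called in any comparison, including that between the tumour-bearing groups. The sum of 16 monocyte and macrophage markers, all with reads in each group, was 8420 to 12189 in naive, 18197 to 21974 in Siglec-F high and 16584 to 60240 in Siglec-F int, and 9 of the 16 were called higher in each comparison with naive. The sum was made up mainly of Lyz2, C1qb and Chil3. Lyz2 and C1qb were called in neither comparison, and Chil3 was called higher only in Siglec-F high. Siglec-F int library 2 gave the 60240, while the other libraries of that group gave 16584 and 20199. The naive libraries stood apart in 10 pigment cell markers, whose sum was 65154 to 73429 there and 212 to 1096 in the 6 other libraries. A sum of 9 fibroblast and smooth muscle markers was 6992 to 8613 in naive against 10738 to 36425 in the others. Of the 9, 6 were called higher in Siglec-F high and 4 in Siglec-F int. Col1a2, Lum and the smooth muscle gene Tagln were called in neither. Col3a1 was the largest part of the sum, with means of 3317 in naive, 16878 in Siglec-F high and 10759 in Siglec-F int. Other lists moved in Siglec-F int without overlap with naive. The sum of 8 dendritic cell markers was 12608 to 48283 against 4236 to 12530, a narrow gap. Most of this sum was H2-Ab1, with means of 6883 in naive and 23625 in Siglec-F int, which was not called. Ccr7 and Itgax were called higher, while Flt3, Xcr1 and Zbtb46 were not called. The sums were lower for 8 neutrophil markers (1008 to 1576 against 2223 to 3309), 6 endothelial markers (406 to 513 against 636 to 706) and 7 epithelial markers (2707 to 3540 against 3829 to 6981). No endothelial or epithelial marker was called in Siglec-F int. Fold changes were above 0 for 4 of the 7 epithelial and 1 of the 6 endothelial markers. Most of the epithelial sum was Scgb1a1, with means of 4031 in naive and 2333 in Siglec-F int. In Siglec-F high the neutrophil sum, 1735 to 3687, overlapped naive. The neutrophil gene Ly6g was called lower in both comparisons, and the other 5 tested neutrophil markers in neither. Of the 6 tested, 3 had fold changes above 0 in Siglec-F high and 1 in Siglec-F int. In bulk RNA of sorted cells, fewer cells of a type and less RNA per cell cannot be told apart.

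Of the 38 genes, 32 passed the filter for low values (a mean of at least 5 over the 9 libraries) and were tested. A gene was called where limma's moderated test, fitted over all 13642 genes that passed, gave a Benjamini-Hochberg adjusted p under 0.05. Values are normalized counts, and log2 fold changes are on the scale of log2(value + 1), which understates the change of low genes.

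The receptors Tlr7, Tlr13, Nlrp3, Clec4a2, Clec4e and Clec7a, the kinase-like Irak3 and the caspases Casp1 and Casp4 rose in both tumour-bearing groups against naive, while more members were not called than called in each comparison. Against naive, 10 of the 32 tested members rose in Siglec-F high, 1 fell and 21 were not called. Of all tested genes, 14.7% were called higher and 16.6% lower in this comparison, 31.3% in all. In Siglec-F int, 13 members rose, none fell and 19 were not called, where 12.0% of all genes were called higher and 10.3% lower, 22.3% in all. The median log2 fold change of the tested members was 0.57 in Siglec-F high and 1.51 in Siglec-F int, beside medians of -0.11 and -0.02 over all genes. Every Siglec-F high library lay above every naive one in 11 members and below in 3, as in 20.2% and 26.3% of all genes. For Siglec-F int this was so in 15 and 3 members, as in 23.3% and 27.6% of all genes. The 2 comparisons share the naive libraries. Nlrc4 was called only in Siglec-F high, and Tlr2, Tlr6, Cd14 and Nod2 only in Siglec-F int, although no such difference between the tumour-bearing groups passed its own test in limma. The count for Siglec-F high fell from 10 to 5 without naive library 1, to 6 without naive library 2, naive library 3 or Siglec-F high library 3, and to 6 when the Siglec-F int libraries were kept out of the fit. The count for Siglec-F int fell from 13 to 8 without Siglec-F int library 2.

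**Figure D1:**
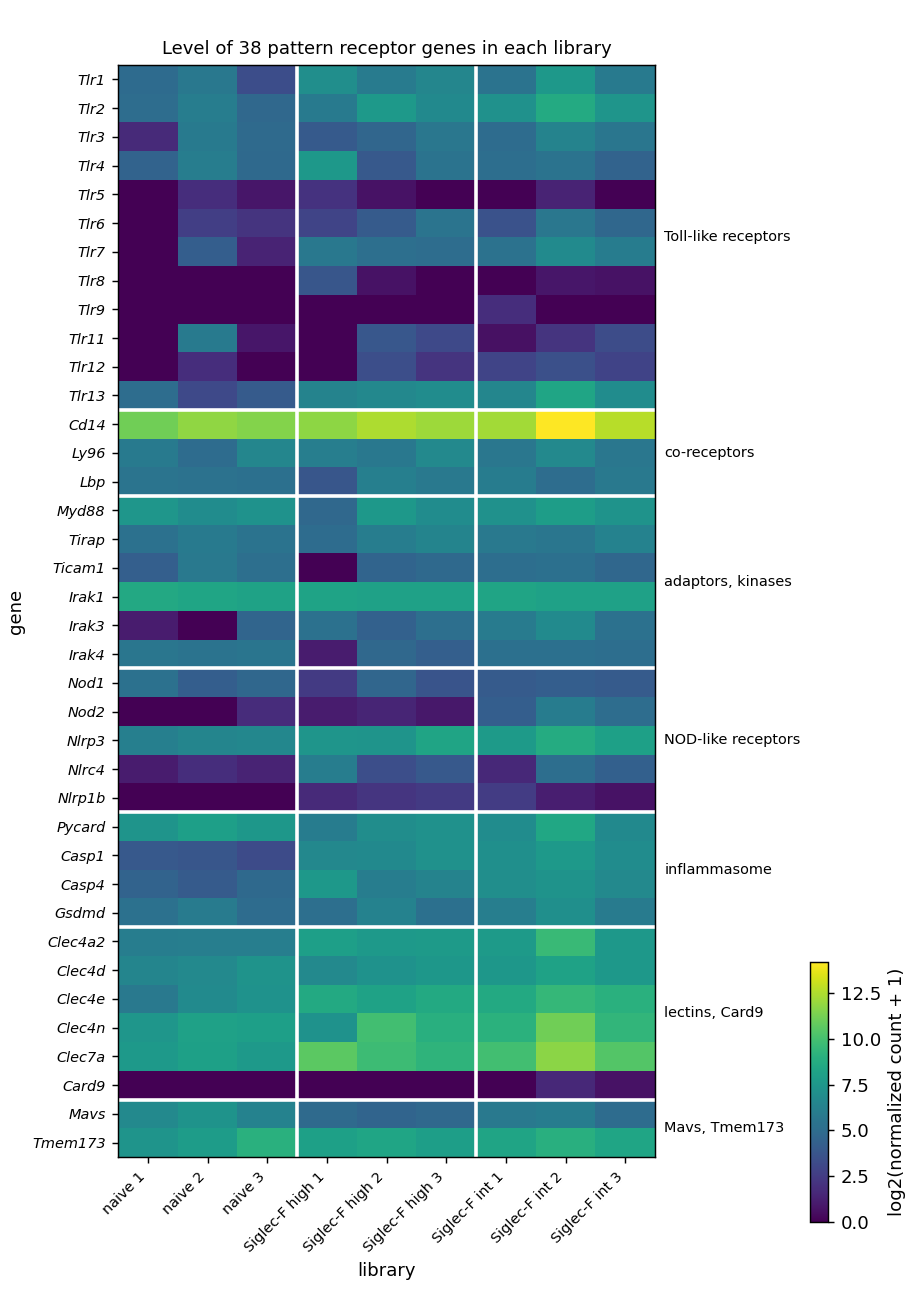
Level of each of the 38 genes (rows, grouped by role) in each of the 9 libraries (columns), as log2(normalized count + 1) on the colour scale. Lighter cells are higher values: Casp1 is lighter in all tumour-bearing libraries, Nod2 in those of Siglec-F int, Cd14 throughout, and Tlr5, Tlr8, Tlr9, Nlrp1b and Card9 are near 0 in nearly every library.

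The promoters of the members were read from RefSeq, which held 30 of the 38 (GRCm38.p6, 250 bases before to 50 after each start). They were searched on both strands for 3 short motifs: GGANTTTCC, part of the kappaB element bound by NF-kappaB, TTCNNTTTC, the core of the interferon-stimulated response element, and GAGGAAGT, a site form of the myeloid factor PU.1. The kappaB letters were found in 3 of the 30 members (10.0%), in 1.45% of all 27025 genes counted in the same way and in 1.25% of all 32851 promoters. The interferon element was found in 6 members (20%), in 9.76% of all genes and in 8.56% of all promoters. The PU.1 letters were found in 5 members (16.67%), in 3.69% of all genes and in 3.20% of all promoters. Several members have more than 1 promoter in the table, and a member was counted where any of them matched. Among the 8 members called higher in both comparisons that had a promoter, 1 held the kappaB letters (12.5%), 1 the interferon element (12.5%) and none the PU.1 letters. A further 18 with a promoter were called higher in neither comparison or were not tested. Of these, 2 held the kappaB letters (11.11%), 4 the interferon element (22.22%) and 5 the PU.1 letters (27.78%). The 5 members with the PU.1 letters (Tlr1, Tlr9, Tlr11, Nlrp1b and Pycard) were not called in either comparison or were not tested. These are matches of letters and not measured binding.

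The 250 bases before the start are shown for the called members with a match in that window, Nlrp3, Irak3 and Tlr6, and for Casp1, the member with the smallest adjusted p, whose window held none of the motifs. Capitals mark the matched letters. The Nlrp3 match is the kappaB element on the reverse strand, its leftmost base 122 bases before the start (chr11:59541319-59541568, plus strand). The Irak3 match is an interferon element starting 102 bases before the start (chr10:120202131-120202380, minus strand). Exons of Irak3 overlap those of Tmbim4 on the other strand. Tlr6 held 2 overlapping interferon elements, at 115 and 109 bases before the start (chr5:64959167-64959416, minus strand, inside the gene as annotated, at the more downstream of 2 RefSeq starts). The Casp1 window is chr9:5298267-5298516 on the plus strand.
Nlrp3: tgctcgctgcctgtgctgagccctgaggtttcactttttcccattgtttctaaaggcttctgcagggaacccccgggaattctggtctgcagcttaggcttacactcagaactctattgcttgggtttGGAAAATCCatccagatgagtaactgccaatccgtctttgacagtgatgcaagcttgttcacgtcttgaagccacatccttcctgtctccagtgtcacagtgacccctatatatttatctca
Irak3: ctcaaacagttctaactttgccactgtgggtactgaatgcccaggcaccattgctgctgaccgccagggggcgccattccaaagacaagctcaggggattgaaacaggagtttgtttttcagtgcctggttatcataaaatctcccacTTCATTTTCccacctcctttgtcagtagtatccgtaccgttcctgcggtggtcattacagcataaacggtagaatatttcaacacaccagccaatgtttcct
Tlr6: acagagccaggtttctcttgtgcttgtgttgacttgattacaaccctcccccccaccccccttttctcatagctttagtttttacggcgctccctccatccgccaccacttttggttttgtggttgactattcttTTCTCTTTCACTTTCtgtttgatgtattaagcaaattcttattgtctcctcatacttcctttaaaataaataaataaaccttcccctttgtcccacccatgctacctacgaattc
Casp1: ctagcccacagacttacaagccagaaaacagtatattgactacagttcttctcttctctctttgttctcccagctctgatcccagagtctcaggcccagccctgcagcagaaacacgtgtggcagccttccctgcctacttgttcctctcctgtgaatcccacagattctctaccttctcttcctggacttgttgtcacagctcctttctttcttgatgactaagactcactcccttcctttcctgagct

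Among the surface Toll-like receptors, Tlr2 and Tlr6 were called higher in Siglec-F int and no surface receptor was called in Siglec-F high. Tlr2 (chr3:83836272-83841767), which binds lipopeptides as a pair with Tlr1 or Tlr6, measured 33.3, 62.5 and 26.7 in the naive libraries, 53.7, 194 and 107 in Siglec-F high, and 142, 405 and 169 in Siglec-F int. The Siglec-F int libraries all lay above naive, and Siglec-F high library 1 overlapped naive. Its log2 fold change in Siglec-F int was 2.45 ± 0.58 (SE, adjusted p = 0.0136), and without Siglec-F int library 2 it was 1.99 with an adjusted p of 0.0552. Without naive library 3 it was 2.20, also short of the threshold (adjusted p = 0.0508). In Siglec-F high it was 1.42 ± 0.58 (adjusted p = 0.0817), and without Siglec-F high library 1 it was 1.89 with an adjusted p of 0.0266. Tlr6 (chr5:64952031-64960097) measured 0, 5.21 and 3.34 in naive, 6.58, 16.1 and 43.5 in Siglec-F high, and 10.7, 48.0 and 26.2 in Siglec-F int. Every tumour-bearing library exceeded every naive one, from 6 reads in all naive libraries together, 84 in Siglec-F high and 217 in Siglec-F int. The call held in Siglec-F int (3.06 ± 0.96, adjusted p = 0.0426) but not in Siglec-F high (2.58 ± 0.96, adjusted p = 0.0608). Leaving out 1 library ended it for naive library 1 or 3, Siglec-F high library 2 and each Siglec-F int library, with an adjusted p of 0.145 at most (Siglec-F int library 2). In Siglec-F high it was called without library 1 of that group (3.20, adjusted p = 0.0329). Tlr1, its neighbour on the chromosome (chr5:64924679-64933563), measured 29.8, 49.5 and 9.19 in naive and 131, 57.9 and 91.3 in Siglec-F high, without overlap, but with an adjusted p of 0.0741. Tlr1 and Tlr6 are close in sequence, and how reads that fit both were counted is not given in the sources used here. Tlr4, the lipopolysaccharide receptor, measured 21.8, 62.5 and 28.4 in naive and 34.4, 40.9 and 21.5 in Siglec-F int, which overlap. In Siglec-F high it measured 189.7, 14.9 and 41.8, so that 1 library stood above all others.

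Tlr7 and Tlr13, endosomal receptors for single-stranded RNA and bacterial ribosomal RNA, rose in both tumour-bearing groups. Tlr13 (chrX:106143204-106160493) measured 33.3, 7.82 and 15.9 in naive, 80.1, 96.0 and 119 in Siglec-F high, and 89.7, 326 and 121 in Siglec-F int. All 6 tumour-bearing libraries lay above the highest naive library. The log2 fold changes were 2.51 ± 0.61 (adjusted p = 0.0127) and 3.15 ± 0.61 (adjusted p = 0.00568). Tlr7 (chrX:167304929-167330558) measured 0, 18.2 and 1.67 in naive, 50.5, 35.2 and 33.3 in Siglec-F high, and 40.3, 111 and 60.7 in Siglec-F int. Neither tumour-bearing group overlapped naive, and naive library 2 stood above the other naive libraries. The log2 fold changes were 3.43 ± 0.95 (adjusted p = 0.0215) and 4.15 ± 0.95 (adjusted p = 0.0121), from 9 naive reads in total. The call in Siglec-F high ended without naive library 1 (adjusted p = 0.0659) or 3 (0.0636), and that in Siglec-F int without library 2 of that group (adjusted p = 0.0509). Tlr3, the receptor for double-stranded RNA, was not called, and its naive libraries ran from 2.29 to 54.7, a range that took in every Siglec-F high library (15.4 to 47.8) and all but 1 of Siglec-F int (31.1 to 79.6). Its exons overlap those of Gm45542 on the other strand, and whether reads were counted by strand is not given in the sources used here.

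The remaining Toll-like receptors were scarce. Tlr11, a receptor for protozoan profilin, measured 57.3 in naive library 2 and at most 13.7 in any other library. Tlr12, which also binds profilin, had 1 naive read, 20 in Siglec-F high and 56 in Siglec-F int. It measured 0, 2.61 and 0 in naive and 0, 9.55 and 3.41 in Siglec-F high, which overlap. In Siglec-F int it measured 6.44, 10.11 and 6.33, all above naive. The ratio of normalized reads to naive was 13.05 (95% counting interval 2.09 to 541) in Siglec-F high and 18.6 (3.20 to 746) in Siglec-F int, and these intervals cover counting error only. Tlr8, a neighbour of Tlr7 and a receptor for RNA fragments, had no naive read and 13 in Siglec-F high, nearly all of them in library 1 (13.2, 0.600 and 0). Against a floor of 3 reads over the naive group this was at least 2.83-fold higher. Tlr5, the flagellin receptor, had 2, 4 and 4 reads in the 3 groups. Tlr9, the receptor for unmethylated DNA, had 5 reads, all in Siglec-F int library 1 (2.68). At this depth no difference was detectable for Tlr5 or Tlr9, and none of these low genes except Tlr11 entered the test.

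**Figure D2:**
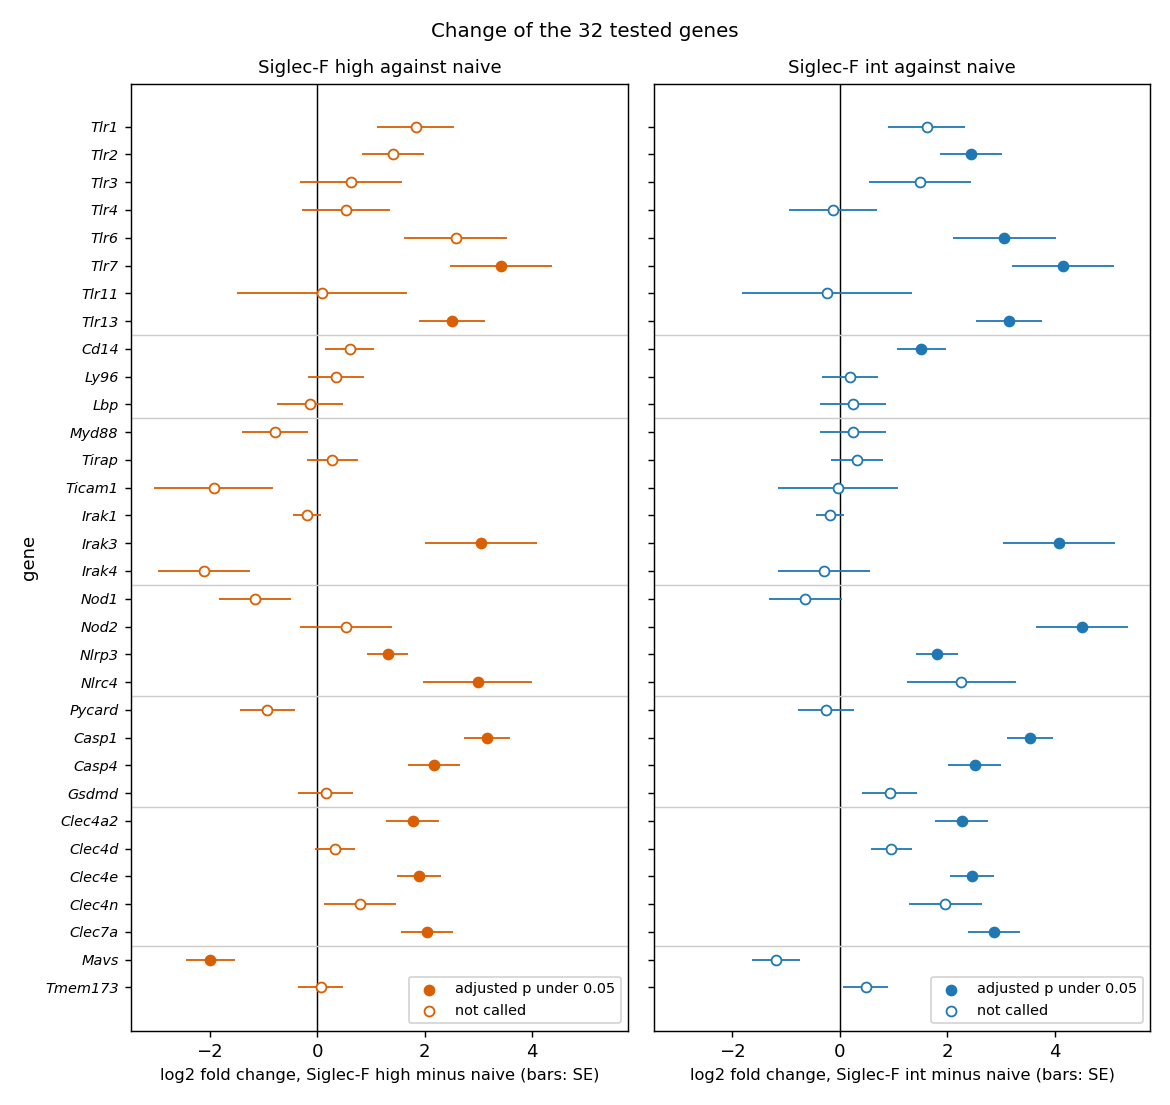
Log2 fold change of the 32 tested genes (rows, grouped by role) in Siglec-F high minus naive (left) and Siglec-F int minus naive (right), with bars of 1 SE. Filled points passed an adjusted p of 0.05: on the left 10 lie above 0 and 1 (Mavs) below, and on the right 13 lie above 0 and none below.

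The accessory molecules that present lipopolysaccharide to Tlr4 moved less. Cd14, a surface protein that hands lipopolysaccharide to the receptor complex, measured 2243, 3611 and 3075 in naive, 3549, 5537 and 4458 in Siglec-F high, and 4835, 18763 and 6487 in Siglec-F int. The Siglec-F int libraries lay above all naive libraries and library 2 lay far above the rest. Its log2 fold change in Siglec-F int was 1.52 ± 0.46 (adjusted p = 0.0370), and without library 2 it was 0.94 (adjusted p = 0.0748). The call also ended without any 1 of the naive libraries, Siglec-F high library 3 or Siglec-F int library 3, where the highest adjusted p was 0.122 (naive library 1). In Siglec-F high it was 0.60 ± 0.46 (adjusted p = 0.321). Ly96, the MD-2 subunit that binds lipopolysaccharide, was not called, with 31.3 to 89.4 in naive, 50.7 to 102 in Siglec-F high and 49.0 to 101 in Siglec-F int. Lbp, a soluble lipopolysaccharide carrier, was not called either, with 36.8 to 43.6 in naive, 13.2 to 68.0 in Siglec-F high and 33.3 to 62.3 in Siglec-F int.

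Of the Toll adaptors and kinases, only Irak3 was called, and it was called higher in both groups. Irak3 (chr10:120141648-120202130), a kinase-like protein that restrains Toll signalling, measured 1.15, 0 and 24.2 in naive, 38.4, 20.3 and 35.0 in Siglec-F high, and 58.5, 112 and 37.96 in Siglec-F int. Naive library 3 lay within the range of Siglec-F high, and the Siglec-F int libraries all exceeded naive. The log2 fold change was 3.04 ± 1.04 (adjusted p = 0.0472) in Siglec-F high, a call that 17 of 23 other settings ended, among them leaving out any single library except naive library 3. In Siglec-F int it was 4.08 ± 1.04 (adjusted p = 0.0194), with an adjusted p of 0.0745 without library 2, and the call also ended without Siglec-F int library 1 or naive library 1 or 2. Its exons overlap Gm47009 and Tmbim4 on the other strand. Irak4, the kinase next to Myd88 in the receptor complex, measured 45.9, 41.7 and 45.1 in naive, 1.1, 26.9 and 18.8 in Siglec-F high, and 36.5, 37.1 and 34.5 in Siglec-F int. The 3 groups did not overlap, with Siglec-F high the lowest. The log2 fold change in Siglec-F high was -2.11 ± 0.85 (adjusted p = 0.0800), it was -0.95 (adjusted p = 0.121) without library 1 of that group, and without library 2 it was -2.81 and called (adjusted p = 0.0283). Irak4 (chr15:94543643-94581815) shares exon sequence with Twf1 on the other strand.

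Myd88, the adaptor of most Toll-like receptors, was not called, and measured 172, 119.8 and 150.3 in naive, 26.3, 186 and 119 in Siglec-F high, and 142, 242 and 153 in Siglec-F int. Siglec-F high library 1 alone stood below the others. Ticam1, the adaptor TRIF of Tlr3 and Tlr4, was at 0 in that library and between 18.4 and 52.1 in the others. Irak1, the kinase that Irak4 activates, was not called, with 289.8 to 377 in naive, 277 to 306 in Siglec-F high and 282 to 307 in Siglec-F int. Its log2 fold change in Siglec-F high was -0.20 ± 0.26 (adjusted p = 0.573). Tirap, which bridges Tlr2 and Tlr4 to Myd88, was not called and ran from 39.0 to 57.3 in naive, 31.8 to 83.6 in Siglec-F high and 46.3 to 76.2 in Siglec-F int. Irak1, Myd88 and Tirap also share exon sequence with annotated neighbours.

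Among the NOD-like receptors, Nlrp3 was called higher in both groups, Nlrc4 in Siglec-F high and Nod2 in Siglec-F int. Nlrp3 (chr11:59541568-59566956), which senses cell damage and nucleates an inflammasome, measured 68.8, 86.0 and 92.7 in naive, 168, 164 and 309.6 in Siglec-F high, and 212, 431 and 267 in Siglec-F int. All tumour-bearing libraries exceeded all naive ones, with log2 fold changes of 1.31 ± 0.39 (adjusted p = 0.0275) and 1.81 ± 0.39 (adjusted p = 0.00865). The call in Siglec-F high ended without any 1 of the naive libraries or Siglec-F high library 3 (adjusted p up to 0.0961). Nod2 (chr8:88647315-88688474), which detects muramyl dipeptide, measured 0, 0 and 2.51 in naive, 1.1, 1.79 and 0.850 in Siglec-F high, and 18.2, 61.9 and 33.2 in Siglec-F int. Only the Siglec-F int libraries carried it above a few reads, with 286 reads in all against 3 in naive and 5 in Siglec-F high. The ratio of normalized reads in Siglec-F int to naive was 31.6 (95% counting interval 10.7 to 154), and the log2 fold change was 4.51 ± 0.85 (adjusted p = 0.00520). It stayed called without Siglec-F int library 2 (4.08, adjusted p = 0.0281). Nlrc4 (chr17:74425438-74459142), the core of the inflammasome that responds to flagellin, measured 1.15, 2.61 and 1.67 in naive, 62.5, 9.55 and 14.5 in Siglec-F high, and 2.15, 34.5 and 19.3 in Siglec-F int. Siglec-F int library 1 overlapped naive. The log2 fold change in Siglec-F high was 2.99 ± 1.02 (adjusted p = 0.0457), and without library 1 it was 2.22 with an adjusted p of 0.119. Of the 9 libraries, the call was kept only where library 2 of Siglec-F high or library 1 of Siglec-F int was left out. Nod1, the sensor of a peptidoglycan peptide, was not called, with 18.2 to 37.9 in naive, 4.39 to 25.1 in Siglec-F high and 15.6 to 18.1 in Siglec-F int. Nlrp1b, an inflammasome sensor of bacterial proteases, had no naive read, 13 in Siglec-F high and 14 in Siglec-F int, at least 2.83-fold and 1.55-fold higher than a floor of 3 reads over the naive group. Nlrp1b has close copies in the genome, so its counts are uncertain.

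The inflammatory caspases Casp1 and Casp4 rose in both tumour-bearing groups, and Casp1 had the smallest adjusted p of the members in each comparison with naive. Casp1 (chr9:5298517-5307265), the protease that matures interleukin-1 beta, measured 14.9, 13.03 and 8.35 in naive, 96.5, 104 and 144 in Siglec-F high, and 133, 204 and 119.6 in Siglec-F int. The means were 12.1 ± 3.38, 115 ± 25.6 and 152 ± 45.3 (SD, n = 3 each), and every tumour-bearing library lay far above naive. The log2 fold changes were 3.16 ± 0.43 (adjusted p = 0.000855) and 3.54 ± 0.43 (adjusted p = 0.000728), and neither call was lost in any of 23 other settings. Casp4, the adjacent gene (chr9:5308828-5336783), encodes the mouse caspase that binds cytosolic lipopolysaccharide, and measured 21.8, 15.6 and 28.4 in naive, 191, 64.4 and 81.0 in Siglec-F high, and 128, 156 and 101 in Siglec-F int. Its groups did not overlap with naive either, with log2 fold changes of 2.18 ± 0.49 (adjusted p = 0.00937) and 2.51 ± 0.49 (adjusted p = 0.00590). The other inflammasome parts were not called. Pycard, the adaptor ASC that links sensors to caspase-1, measured 162, 253 and 185 in naive and 60.3, 125 and 142 in Siglec-F high, all below naive, with a log2 fold change of -0.93 ± 0.51 (adjusted p = 0.180). In Siglec-F int it measured 118, 357 and 105, both below and above naive. Its exons overlap Gm45205 on the other strand. Gsdmd, the pore-forming substrate of these caspases, ran from 31.7 to 59.9 in naive, 35.1 to 76.4 in Siglec-F high and 57.9 to 132 in Siglec-F int.

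**Figure D3:**
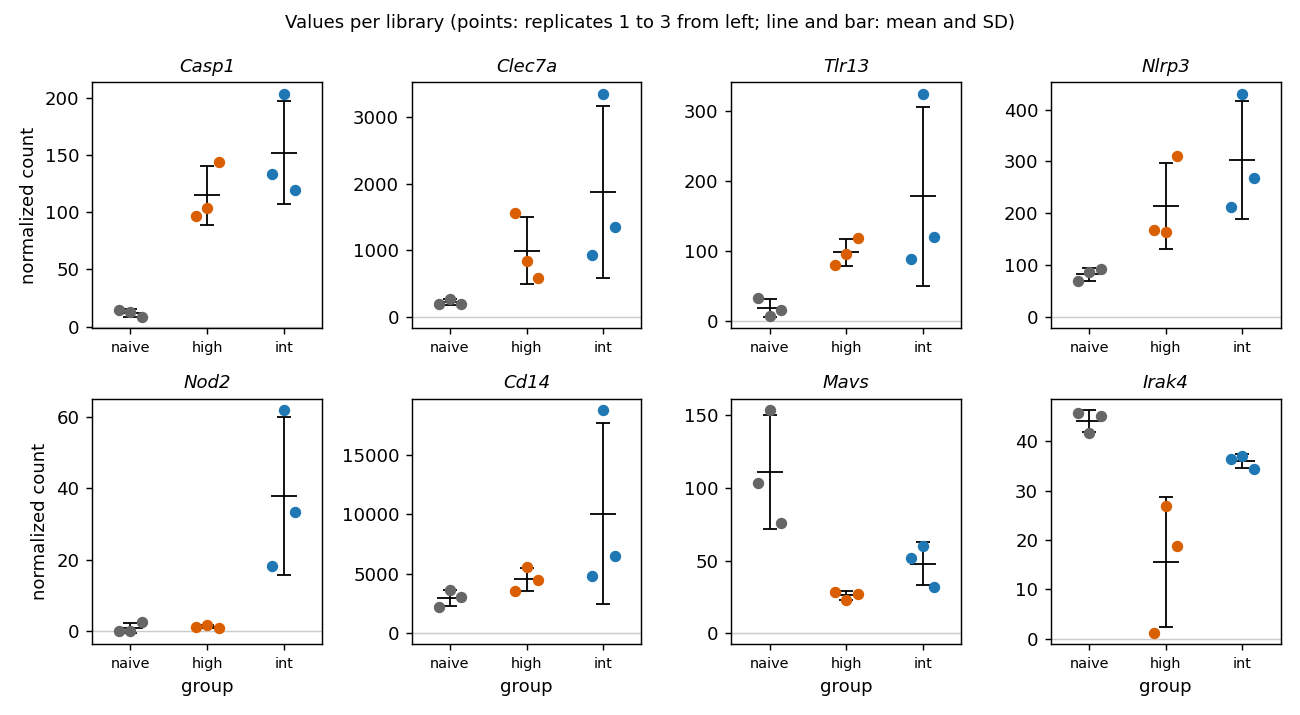
Normalized count (vertical axes, each gene on its own scale) of 8 genes in each library of the naive, Siglec-F high and Siglec-F int groups, with replicates 1 to 3 from left to right and lines for the mean and SD. Casp1, Clec7a, Tlr13 and Nlrp3 are higher in every tumour-bearing library than in any naive one, Nod2 stands above a few reads only in Siglec-F int, and Mavs is lower in every tumour-bearing library.

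The C-type lectin receptors all lie on chromosome 6, and 3 of the 5 tested rose in both tumour-bearing groups. Clec7a (chr6:129461591-129472779), the beta-glucan receptor Dectin-1, measured 196, 271 and 203 in naive, 1563, 841 and 589 in Siglec-F high, and 937, 3354 and 1350.3 in Siglec-F int. The lowest tumour-bearing library was above the highest naive one, and the log2 fold changes were 2.05 ± 0.48 (adjusted p = 0.0112) and 2.87 ± 0.48 (adjusted p = 0.00293). Clec4e (chr6:123281789-123289870), the receptor Mincle for mycobacterial and fungal glycolipids, measured 51.6, 109 and 148 in naive, 390.5, 288 and 397 in Siglec-F high, and 397, 689 and 519.7 in Siglec-F int. The groups did not overlap with naive, with log2 fold changes of 1.90 ± 0.41 (adjusted p = 0.00774) and 2.46 ± 0.41 (adjusted p = 0.00279). Clec4a2 (chr6:123106428-123143999), an inhibitory receptor of the DCIR family, was tight in naive at 63.1, 65.1 and 65.2. It measured 259.9, 199 and 215 in Siglec-F high and 209.9, 795 and 187 in Siglec-F int, again with no overlap, and the log2 fold changes were 1.78 ± 0.50 (adjusted p = 0.0227) and 2.27 ± 0.50 (adjusted p = 0.00989). The call in Siglec-F high ended without any 1 of the naive libraries or Siglec-F high library 3 (adjusted p up to 0.0597). The Clec4a family has close copies on the same stretch, so how reads were divided among them is uncertain.

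Clec4n (chr6:123229843-123247021), Dectin-2 for fungal mannans, measured 178, 279 and 261 in naive, 147, 954 and 486 in Siglec-F high, and 543, 2228 and 647 in Siglec-F int. The Siglec-F int libraries all exceeded naive, but the log2 fold change of 1.97 ± 0.67 had an adjusted p of 0.0585, and 11 of 23 other settings called it, among them leaving out Siglec-F high library 1 (0.0135) or 2 (0.0348). In Siglec-F high, library 1 lay below all naive libraries, and the log2 fold change was 0.80 ± 0.67 (adjusted p = 0.373). Clec4d (chr6:123262111-123275265), a partner of Mincle, was 86.0, 102 and 157 in naive, 102, 147 and 183 in Siglec-F high, and 183, 291 and 191 in Siglec-F int, with a log2 fold change of 0.96 ± 0.38 (adjusted p = 0.0942) in the last, which passed without Siglec-F high library 1 (0.0349). Card9, the adaptor through which Dectin-1, Dectin-2 and Mincle signal, had no read in naive or Siglec-F high and 7 in Siglec-F int, so no difference was detectable at this depth.

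Mavs was the only member called lower. Mavs (chr2:131234063-131248025), the mitochondrial adaptor of the RNA sensors RIG-I and MDA5, measured 103, 154 and 76.0 in naive, 28.5, 22.7 and 27.3 in Siglec-F high, and 51.5, 60.2 and 31.9 in Siglec-F int. Each tumour-bearing library lay below each naive one. The log2 fold change was -1.99 ± 0.45 (adjusted p = 0.00979) in Siglec-F high and -1.18 ± 0.45 (adjusted p = 0.0852) in Siglec-F int. The latter passed the threshold without Siglec-F high library 1 (adjusted p = 0.0442). Tmem173, the adaptor STING of cytosolic DNA sensing, was not called, with 162 to 510.4 in naive, 245 to 329 in Siglec-F high and 316 to 502 in Siglec-F int.

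Between the Siglec-F high and Siglec-F int groups, which address how the 2 labelled populations of tumour-bearing lungs differ, no member was called in either direction. The background was the same, with 0.00% of all genes called by limma, 591 genes (4.33%) at an unadjusted p under 0.05, none called by edgeR (636 unadjusted) and 6 called by DESeq2. Most fold changes pointed the same way without passing the test: 27 of 32 were below 0, meaning lower in Siglec-F high. Over all genes, 7433 of 13642 were below 0. The median was -0.59 for the members and -0.08 for all genes. In 5 members (Irak4, Nod2, Clec4d, Clec4e and Mavs) every Siglec-F high library lay below every Siglec-F int library, and in none was the reverse seen. Of all genes, 5.75% and 5.52% had no overlap in these directions. The highest Siglec-F high and lowest Siglec-F int values almost met for Clec4e (396.6 and 396.7) and Clec4d (182.52 and 183.05). The 4 smallest p-values belonged to Nod2, Irak4, Cd14 and Tlr2. Nod2 differed most, at 1.25 ± 0.487 against 37.8 ± 22.2 (SD, n = 3 each), with a log2 difference of -3.97 ± 0.85 and an adjusted p of 0.797. DESeq2 on the recovered reads called it (-4.86, adjusted p = 0.0449) and edgeR did not (-4.83, adjusted p = 0.909). The log2 differences of the other 3 were -1.82 ± 0.85 for Irak4, -0.92 ± 0.46 for Cd14 and -1.03 ± 0.58 for Tlr2. Without library 1 of Siglec-F high and library 2 of Siglec-F int, an alternative chosen after seeing the data, these became -0.64 for Irak4, -0.17 for Cd14 and -0.11 for Tlr2, while Nod2 stayed at -3.50.

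Genes that work with the receptors were read from a list of 75, of which 66 were tested. Of these, 24 rose and 2 fell in Siglec-F high, with a median log2 fold change of 0.81, and 30 rose and none fell in Siglec-F int, with a median of 1.41. Of the tested partners, 36.4% thus rose and 3.03% fell in Siglec-F high and 45.5% rose in Siglec-F int, beside 14.7% of all genes higher and 16.6% lower in the former and 12.0% higher in the latter. The lectin partners had the highest medians of the 4 partner lists: 8 of 16 rose in Siglec-F high (50%) and 10 of 16 in Siglec-F int (62.5%). Clec5a, a receptor that pairs with the adaptor Dap12, rose by 3.83 ± 0.66 (adjusted p = 0.00269) and 4.12 (adjusted p = 0.00238). Colec12, a scavenger receptor with a lectin domain, rose by 3.73 ± 0.57 (adjusted p = 0.00153) and 3.20 (adjusted p = 0.00385).

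Of 17 partners of NOD-like receptors, 4 rose in Siglec-F high (23.5%) and 5 in Siglec-F int (29.4%), and none fell. Nek7, the kinase that Nlrp3 needs to assemble, rose by 3.00 ± 0.46 (adjusted p = 0.00168) in Siglec-F high, and Ripk2, the kinase downstream of Nod1 and Nod2, by 2.12 ± 0.45 (adjusted p = 0.00710). In Siglec-F int the smallest adjusted p-values were those of Nlrc5, a regulator of MHC class I genes (3.82 ± 0.73, adjusted p = 0.00525), and Naip2, the partner of Nlrc4 (3.42 ± 0.70, adjusted p = 0.00716). Of 21 Toll partners, 7 rose in Siglec-F high (33.3%) and 8 in Siglec-F int (38.1%). Tab2, which links ubiquitin chains to the kinase Tak1, rose in both, by 1.77 ± 0.28 (adjusted p = 0.00195) and 1.57 (adjusted p = 0.00417). Tbk1, the kinase that activates Irf3, rose by 1.84 ± 0.40 (adjusted p = 0.00805) in Siglec-F high, and Ly86, the MD-1 subunit that binds the Toll homologue Cd180, by 2.84 ± 0.51 (adjusted p = 0.00400) in Siglec-F int.

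Of 12 genes of nucleic acid sensing, 5 rose (41.7%) and 2 fell (16.7%, near the share of all genes) in Siglec-F high, and 7 rose (58.3%) in Siglec-F int. Ifi204, an interferon-induced DNA-binding protein, measured 4.59 to 15.6 in naive, 135 to 206 in Siglec-F high and 208 to 534 in Siglec-F int, with log2 fold changes of 4.12 ± 0.51 (adjusted p = 0.000572) and 5.02 (adjusted p = 0.000415). It has close copies in a gene cluster, so its counts are uncertain. Ddx3x, an RNA helicase, rose by 1.55 ± 0.35 (adjusted p = 0.0102) in Siglec-F high, and Zbp1, a sensor of left-handed nucleic acid, by 3.07 ± 0.71 (adjusted p = 0.0129) in Siglec-F int, with an adjusted p of 0.0524 without library 2 of that group. The 2 that fell in Siglec-F high were Traf2, a ubiquitin ligase adaptor (-2.43 ± 0.81, adjusted p = 0.0428), and Adar, the RNA editing enzyme (-1.30 ± 0.44, adjusted p = 0.0433). Leaving out 1 library ended both calls for any naive or Siglec-F int library, and that of Adar also for Siglec-F high library 1 or 3 (adjusted p up to 0.120).

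Higher levels of some members and higher levels of the macrophage markers occurred in the same libraries, while Mavs and Irak4 were lower in all tumour-bearing libraries. Siglec-F int library 2 had the highest macrophage marker sum and also the highest dendritic marker sum (48283). It was the highest of the 9 libraries for 19 of the 32 tested members (59.4%), against 10.4% of all tested genes. Siglec-F high library 1, with the highest mitochondrial share, was the lowest for 8 members (25.0%), against 30.8% of all genes, and naive library 1 for 11 members (34.4%), against 13.7%. Each tested member was also expressed per 1000 of the macrophage marker sum of its library, a sum made up mainly of Lyz2 (30.7%), C1qb (30.3%) and Chil3 (15.5%). On this scale 6 of the 32 tested members (Tlr7, Tlr13, Nlrc4, Casp1, Clec4a2 and Clec7a; 18.8%) had all Siglec-F high libraries above all naive ones, as did 6.9% of all tested genes. A larger number, 10 of 32 (31.2%), had all of them below naive, as did 44.2% of all genes: Lbp, Myd88, Ticam1, Irak1, Irak4, Nod1, Pycard, Gsdmd, Mavs and Tmem173. In Siglec-F int, 9 of 32 lay above naive (Tlr2, Tlr6, Tlr7, Tlr13, Nod2, Casp1, Clec4a2, Clec4n and Clec7a; 28.1%), against 3.3% of all genes, and 8 of 32 lay below (Tlr4, Myd88, Tirap, Irak1, Irak4, Nod1, Pycard and Mavs; 25.0%), against 47.8%. Casp1 ran from 0.992 to 1.53 in naive, 4.72 to 7.92 in Siglec-F high and 3.39 to 8.03 in Siglec-F int. Clec7a ran from 20.1 to 24.1 in naive, 32.4 to 81.5 in Siglec-F high and 55.7 to 66.9 in Siglec-F int. Irak3, Nlrp3, Casp4 and Clec4e overlapped with naive in both groups on this scale, and Cd14 did so in Siglec-F int, at 292 to 321 against 229.7 to 365. What part macrophages, dendritic cells, pigment cells or fibroblasts play in these differences was not tested.

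**Figure D4:**
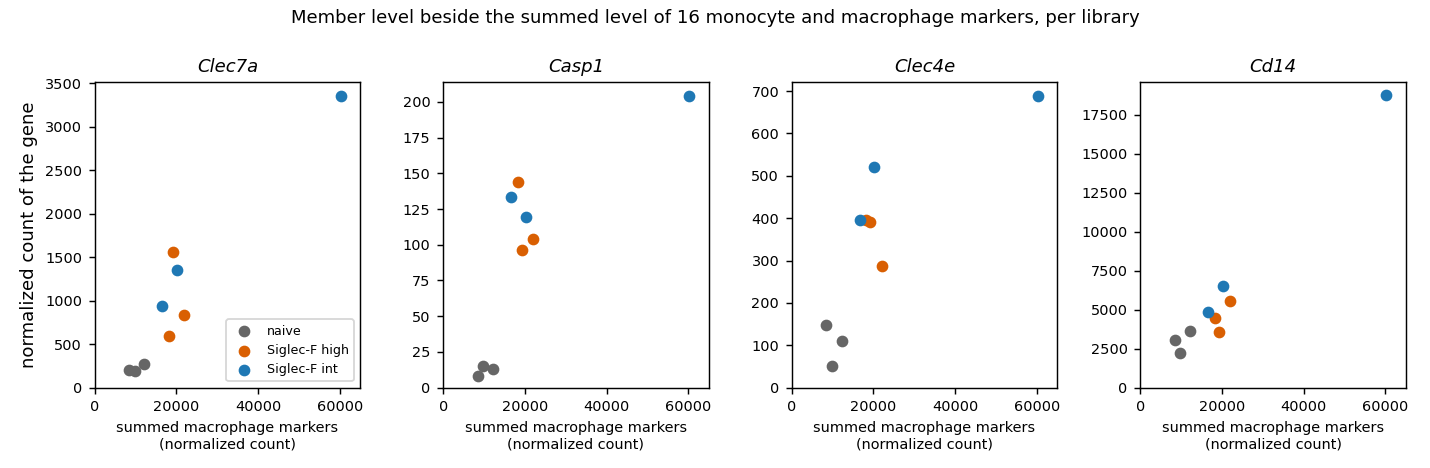
Normalized count of Clec7a, Casp1, Clec4e and Cd14 (vertical axes) in each of the 9 libraries against the summed normalized count of 16 monocyte and macrophage markers (horizontal axes), coloured by group. The point at 60240 on the horizontal axis is Siglec-F int library 2, which is also the highest library for all 4 genes.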

How the data were processed

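RNA from 9 pooled libraries (3 per group) of sorted cells, with a purity above 98% and RNA integrity numbers above 6.3 per the labels, was prepared by Cell-seq protocols per the labels. Per the submitters' processing notes, TopHat2 2.1.0, HTSeq and DESeq2 1.10.0 were used with GRCm38. The deposited signal values are gene counts that the authors divided by a factor for each library. Dividing by the smallest step gave whole reads for 100% of values up to 2000 reads (within 0.05 read). From 54670 entries, 63 with names turned into dates (0.219% of the total), 42 that repeat another name with its values and 116 exact duplicates were left out. A further 215 share a name or identifier with another entry. Positions come from GENCODE M21 (99.9% matched, by identifiers without version).

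Groups were compared with limma 3.58.1 (R 4.3.3) on log2(value + 1), a variance trend and all 9 libraries, two-sided. Alternatives changed the pseudocount, filter, scaling, prior, samples, block and tool (edgeR 4.0.16, DESeq2 1.42.0 on recovered reads). Members, lists and tests were chosen with earlier results of these data known. Folds are given for called members and, where a sentence turns on it, others; between the tumour-bearing groups for the 4 smallest p; and for the 2 partners per direction, list and comparison with the smallest adjusted p among those called. Intervals are exact at 95% and cover counting error only, since molecular identifiers are not mentioned in the sources used here. The p-values measure spread between pools, which may be technical.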

Additional observations from a re-analysis of the deposited data

How the results depend on the processing

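No fold change printed for a member or partner changed sign under any of the 23 alternatives. The filter at a mean of 20 left Tlr6, Tlr11, Nod1, Nod2 and Nlrc4 untested. Several alternatives leave a fold change as it is and so could not change its sign. These are the minimum fold of 2, the filters, the variance trend, the replicate block and the fit of only the groups compared. Leaving out a library of the group not compared is another. The number of members called higher in Siglec-F high against naive (10) became 6 when only the groups compared were fitted and ran from 5 to 10 over libraries left out in turn. It was 10 with edgeR and 12 with DESeq2. The number called lower there (1) ran from 1 to 2 over libraries left out. The number called higher in Siglec-F int against naive (13) ran from 8 to 15 over libraries left out, and was 13 with edgeR and 17 with DESeq2. The number called lower there (0) ran from 0 to 1, and was 1 (Mavs) without both library 1 of Siglec-F high and library 2 of Siglec-F int, an alternative chosen after seeing the data. Between the tumour-bearing groups DESeq2 called 1 member lower in Siglec-F high (Nod2). The cause was not tested. With the replicate number as a block, 10 and 14 members were called higher against naive, and none between the tumour-bearing groups. Deviations of same-numbered libraries correlated at -0.0293 to 0.0072 (Siglec-F high and naive), -0.0212 to 0.0616 (Siglec-F int and naive) and 0.0718 to 0.1405 (the tumour-bearing groups). Not every value exceeded 0.1, so the numbers were not taken to pair the libraries. Between the tumour-bearing groups every library correlated best with its own number (other pairs -0.157 to -0.0105), a hint from the data and not from the design, and genes at an unadjusted p under 0.05 went from 591 to 813 with the block. Over all genes, calls higher and lower were 1999 and 2267 in Siglec-F high and 1634 and 1402 in Siglec-F int. With equal totals they were 2141 and 1611, and 2009 and 898, and the median of all genes moved from -0.11 to 0.02 and from -0.02 to 0.23. With only the groups compared, all calls went from 4266 to 2509 and from 3036 to 4808. Members with few reads (Tlr5, Tlr8, Tlr9, Tlr12, Nlrp1b and Card9) could not be tested at this depth.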
